A study of Drosophila melanogaster with 24 samples.

Results

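The genes described here encode the nuclear subunits of the respiratory chain and of ATP synthase in Drosophila melanogaster. They were taken by name: every probe set annotated to a single gene whose current symbol starts with ND-, Sdh, UQCR, COX or ATPsyn, which gave 81 probe sets for 73 genes of the 11982 genes with a probe set of their own. Of these genes, 22 had a symbol ending in L, or in L and a digit, and are called L paralogs below, 50 were general subunits, and 1, Sdhaf3, is an assembly factor of succinate dehydrogenase. RNA came from whole virgin flies, 3 to 7 days old and held for a short time without food, of 6 lines that share a base population. Selection was for high male aggression in H1 and H2 and for low male aggression in L1 and L2, and C1 and C2 were kept as controls with no selection. There were 24 samples, each a pool of 12 flies of a single line and sex, with 2 for every line and sex, so that a selection group rests on 2 lines and 8 arrays. The sources give different generations for the collection, and p-values below measure the spread between these samples unless the line is named as the replicate.

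The respiratory chain lies in the inner mitochondrial membrane. Complex I takes electrons from NADH, complex II from succinate, complex III passes them to cytochrome c, and complex IV passes them to oxygen. The proton gradient that complexes I, III and IV build up drives complex V, the ATP synthase. In Drosophila many of the nuclear subunits have a duplicate gene, and duplicates of mitochondrial proteins expressed mostly in the testis are a well known feature of the genus, where the elongating sperm tail is packed with a large mitochondrial derivative. General subunits are expressed in most tissues and reach high levels in flight muscle.

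The value of a probe set is its Signal, an intensity on a linear scale that the authors set to a common level on each array. Signals were compared as log2(Signal + 16), so that differences of dim probe sets are understated. The 2% trimmed mean Signal was 497.1 to 498.4 on every array, while the median Signal was 124.8 to 143.4 on male arrays and 71.4 to 118.9 on female arrays. Replicate arrays correlated at 0.972 to 0.99, and no pair of arrays held identical values. A female array of line C1, replicate 1, stood apart: its summed Signal over the testis and sperm genes was 3109, against 659.7 to 1306 on the other 11 female arrays, and its summed Signal over accessory gland genes was 4986, against 201.3 to 370.8. Some counts that rest on it are given without it below. The title of 1 H male sample names group 2 and line 1, and it was read as H2: its deviations correlated at 0.386 with the other H2 male array, and at 0.0849 and -0.0697 with the H1 male arrays.

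A probe set was tested when its Signal was at least 50 on at least 12 of the 24 arrays, which 11928 probe sets met. Of the 81 probe sets described here 80 were tested, the exception being 1 of the 3 probe sets of COX7B with a median Signal of 20.4 in males and 19.95 in females. All 22 L paralogs were tested, 8 of them with no female array at a Signal of 50, so that they passed through the male arrays. Not analysed here were 18 genes with such symbols and no single-gene probe set, among them the mitochondrially encoded COX1, COX2 and COX3 and the nuclear SdhA, UQCR-C1 and UQCR-C2.

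Transcript abundance of nearly every L paralog was far higher in males than in females, while most general subunits differed little between the sexes. In the limma fit, 20 of 22 L paralogs were higher in males at an adjusted p below 0.001, against 30% of all tested probe sets. Of the 22, 12 had a Signal below 50 on at least 11 female arrays, so that they entered the test mostly or only through the male arrays. For these the count beside the 30% is a description. For these 20 genes the lowest male array lay above the highest female array in every case. The share of all tested probe sets that separate the sexes in this way was not counted. The male minus female difference over the 22 L paralogs had a median of 4.72 on the log2 scale, the 57 tested probe sets of general subunits had a median of 0.04, and all tested probe sets had a median of -0.169. In whole flies a larger number of cells of a type and more RNA per cell cannot be told apart.

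**Figure D1:**
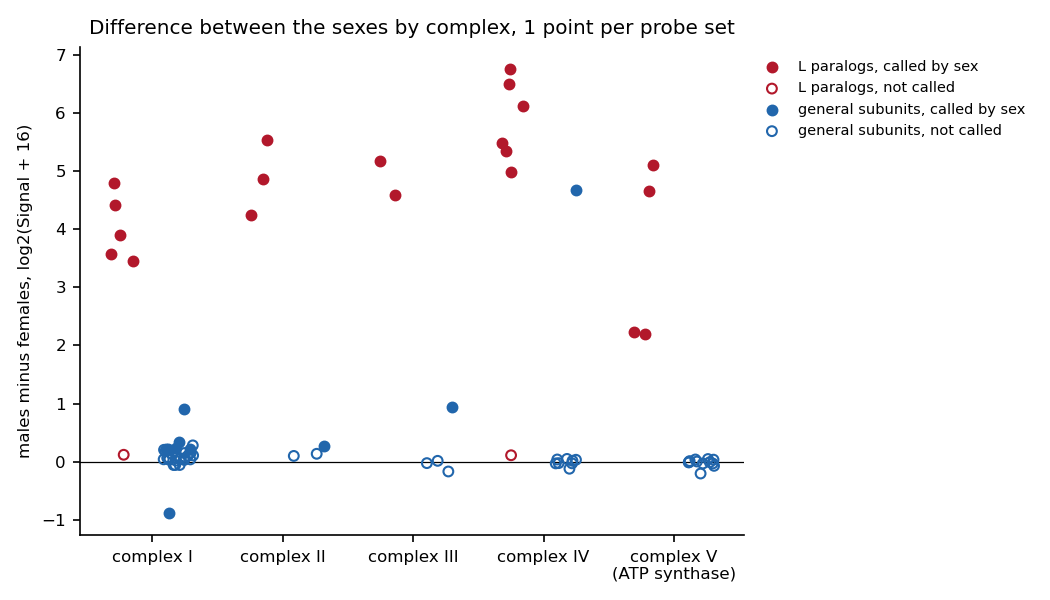
Male minus female difference in log2(Signal + 16), averaged over 6 lines, for each tested probe set of complexes I to V, with L paralogs (red, left) and general subunits (blue, right). Filled points passed an adjusted p of 0.001. In every complex all L paralogs but ND-MNLL and COX7AL2 lie above 2, whereas the general subunits lie between -0.88 and 0.94 with the exception of the second COX7C probe set.

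In complex I, 5 of 6 L paralogs were higher in males, by 3.45 to 4.79 on the log2 scale. ND-24L, a duplicate of the subunit that carries an iron-sulfur cluster next to the NADH site, had Signals of 405.9, 648.4 and 829.3 (lowest, median and highest) on the 12 male arrays, against 1.6, 5.65 and 22 on the 12 female arrays, and differed by 4.79 ± 0.11 (SE, adjusted p = 1.5e-15). ND-20L, a duplicate of an iron-sulfur subunit near the quinone site, had 470.5, 614.0 and 719.1 in males, against 3.1, 11.65 and 49.2 in females. Both genes thus separated the sexes with no overlap. ND-51, which holds the NADH-oxidizing flavin, has a pair of numbered duplicates, and both were male-biased: ND-51L1 had 182.2, 250.5 and 297.3 in males, against 2.0, 4.8 and 26.5 in females, and ND-51L2 had 316.2, 368.1 and 588.2, against 3.2, 19.5 and 42.3. The fifth, ND-B14.5AL, differed by 3.89 ± 0.19 (adjusted p = 1.4e-11).

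All 3 L paralogs of complex II, succinate dehydrogenase, were higher in males. SdhBL, a duplicate of the iron-sulfur subunit, had Signals of 1171, 1399 and 1870 in males, against 1.3, 12.7 and 71.4 in females, a difference of 5.53 ± 0.19 (adjusted p = 9.2e-14). SdhAL, a duplicate of the flavoprotein subunit, differed by 4.23 ± 0.11 (adjusted p = 2.9e-15). SdhCL, a duplicate of a membrane anchor subunit, had 778.7, 930.3 and 1244 in males, against 1.8, 11.95 and 175.9 in females. Its highest female value came from replicate 1 of L1 females, and the other 11 female arrays had at most 45.4. In complex III, UQCR-11L and UQCR-14L, duplicates of small subunits of the cytochrome bc1 complex, differed by 5.17 ± 0.12 (adjusted p = 1.3e-15) and 4.58 ± 0.17 (adjusted p = 4.3e-13).

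Complex IV, cytochrome c oxidase, held the largest differences among the L paralogs. COX7AL had Signals of 1473, 2181 and 2677 in males, against 1.1, 2.4 and 19.3 in females, a difference of 6.75 ± 0.10 (adjusted p = 1.2e-17). COX4L had 2842, 3687 and 4099 in males, against 4.7, 27.0 and 79.9 in females, a difference of 6.49 ± 0.18 (adjusted p = 1.1e-14). COX5BL differed by 6.12 ± 0.19, COX6CL by 5.48 ± 0.10, COX6AL2 by 5.35 ± 0.12 and COX6AL by 4.98 ± 0.23, all with adjusted p of 5.1e-12 or lower. All of these are duplicates of nuclear subunits that surround the catalytic core of the oxidase, which the mitochondrial genome encodes. The counterparts of COX6AL and COX6CL carry other names, levy and cype, and these differed by 0.02 (adjusted p = 0.737) and 0.05 (adjusted p = 0.415).

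Among the 20 male-biased L paralogs, the 4 of ATP synthase spread most widely, from 2.20 to 5.10. ATPsynCF6L, a duplicate of a peripheral stalk subunit, differed by 5.10 ± 0.12 (adjusted p = 2.1e-15), and ATPsynGL, a duplicate of a membrane sector subunit, by 4.66 ± 0.16 (adjusted p = 1.1e-13). The smallest differences among the 20 genes were those of ATPsynbetaL, a duplicate of the catalytic subunit, and of ATPsynepsilonL, a duplicate of a central stalk subunit. ATPsynbetaL had Signals of 201.2, 270.9 and 334.3 in males, against 7.6, 61.3 and 72.8 in females, a difference of 2.24 ± 0.22 (adjusted p = 7.8e-08). ATPsynepsilonL had 208.1, 251.5 and 314.3 in males, against 11.6, 51.55 and 150.7 in females, a difference of 2.20 ± 0.22 (adjusted p = 1.2e-07). In both genes the sexes did not overlap.

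A pair of genes with L symbols did not follow the other 20. ND-MNLL takes its final letters from the amino acids MNLL that name its mammalian ortholog, and is a general subunit of complex I. It had Signals of 5740, 6734 and 8811 in males, against 5413, 6394 and 7944 in females (difference 0.12 ± 0.07, adjusted p = 0.119), and the difference changed sign under quantile normalization, to -0.02. COX7AL2, the second duplicate of COX7A, had Signals of 13540, 15290 and 17680 in males, against 11670, 14070 and 16910 in females. Its difference of 0.11 ± 0.05 (adjusted p = 0.0378) missed the threshold, although it passed with arrays scaled to one median (0.27, adjusted p = 0.00025) or quantile normalized (0.21, adjusted p = 8.0e-05). Both genes overlapped widely between the sexes.

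The reverse case was COX7C, a general subunit of complex IV with 2 probe sets that disagreed. Probe set 1625128_a_at had Signals of 14950, 16190 and 17670 in males, against 13700, 16030 and 18980 in females (difference 0.02 ± 0.05, adjusted p = 0.76). Probe set 1636323_at had 450.2, 775.0 and 933.9 in males, against 4.0, 12.7 and 37.2 in females, a difference of 4.67 ± 0.14 (adjusted p = 1.6e-14). The second probe set thus behaved as the L paralogs did and not as its own gene's other probe set. COX7CL, a duplicate with no single-gene probe set on this array, lies directly next to COX7C on chromosome arm 2R with 0 protein-coding genes between them. Which transcript the second probe set detected was not tested.

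**Figure D2:**
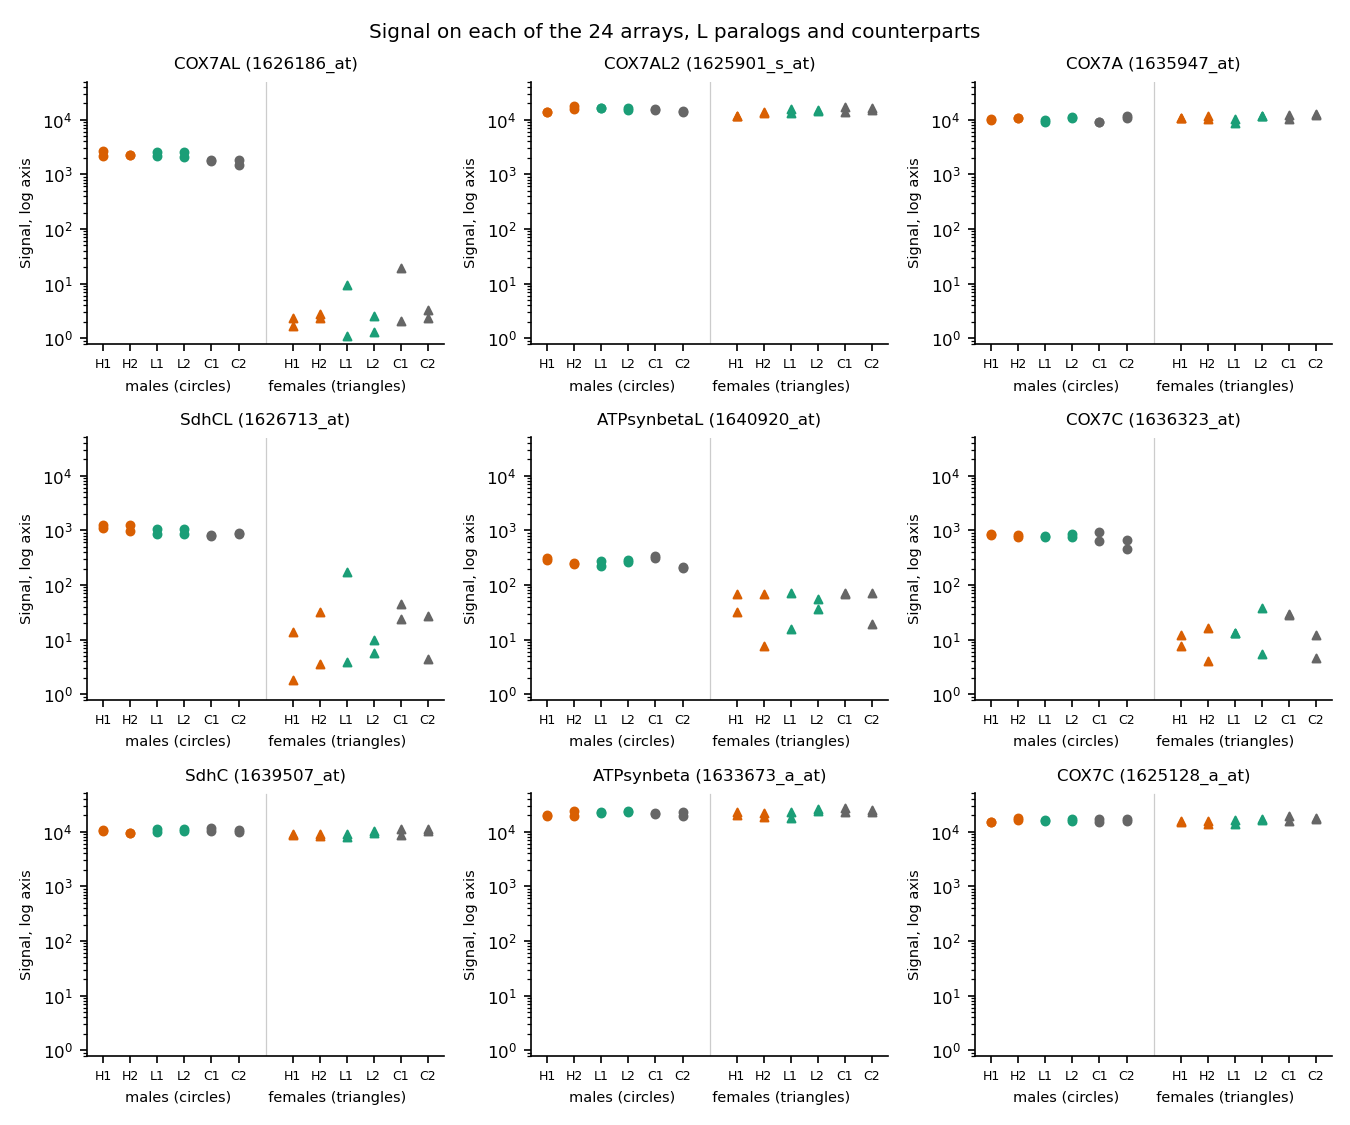
Signal (log axis, same range in each panel) on each of the 24 arrays, by line, with males (circles, left) and females (triangles, right), orange for H, green for L and gray for C lines. COX7AL, SdhCL, ATPsynbetaL and COX7C probe set 1636323_at separate the sexes in all 6 lines, whereas COX7AL2, COX7A, SdhC, ATPsynbeta and COX7C probe set 1625128_a_at do not.

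For 14 L paralogs the counterpart of the same name was also measured, and the sex difference of the paralog was set against that of its counterpart within each line. In all 14 pairs the paralog was the more male-biased gene in 6 of 6 lines (exact two-sided sign-flip permutation test over lines, p = 0.031 for each pair and 0.031 after adjustment over the 14 pairs, the smallest value that 6 lines allow). The difference between pair members was 6.87 ± 0.27 (SD over 6 lines) for COX7AL and COX7A, 6.45 ± 0.63 for COX4L and COX4, 6.08 ± 0.27 for COX5BL and COX5B, and 5.43 ± 0.53 for SdhBL and SdhB. Among the male-biased paralogs it was smallest for ATPsynbetaL and ATPsynbeta, at 2.31 ± 0.12. For COX7AL2 and COX7A it was 0.23 ± 0.10, with lines between 0.06 and 0.32.

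In the genome, some paralogs lie close to their counterparts. Between COX5B and COX5BL on 2L lies 1 protein-coding gene, between COX7A and COX7AL on 3R lie 2, and between SdhC and SdhCL on 3R lie 15, whereas most other pairs are on different arms. The male-biased ND-20L, ND-24L, ND-B14.5AL and UQCR-14L lie on autosomes while their counterparts lie on X. Of these counterparts ND-24 has no single-gene probe set here. Of the L paralogs 2 of 22 genes lie on X (ND-MNLL and the male-biased SdhBL), against 9 of 50 general subunits and 15.8% of all 11889 placed genes of the array.

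The 20 male-biased L paralogs had median Signals of 250.5 to 3687 in males, against 2.4 to 61.3 in females, where they lay close to the floor of the array. Summed over these 20 genes, Signals were 18420, 24250 and 26400 (lowest, median and highest) on male arrays and 320.5, 401.9 and 964.6 on female arrays. The highest female sum came from replicate 1 of L1 females and the second highest, 819.1, from replicate 1 of C1 females. The C1 array was the highest female array for 8 of the 20 genes. Its Signals were a median of 4.19% of the mean of the C1 males over the 20 genes, against 1.38% for the other C1 female array. Without that array 20 L paralogs were called as male-biased. Summed testis and sperm Signals moved with the sex difference, at 64730 to 90630 on male arrays against 659.7 to 3109 on female arrays, with 16 of 17 tested genes of that list higher in males and 1, twe, lower in males. The 9 accessory gland genes were all higher in males and the 13 ovary and egg genes all lower. Of all tested probe sets, 30% were higher in males and 44.5% lower. The part of these organs in the differences was not tested.

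Among the general subunits, 47 of 57 tested probe sets were not called by sex, 9 were higher in males (against 30% of all tested probe sets) and 1 was lower (against 44.5%). The second COX7C probe set was 1 of the 9. The differences of those not called ran from -0.20 to 0.28. With arrays scaled to one median, 54 of 57 were above 0 instead of 40, and 20 were called higher. Under quantile normalization 34 were above 0, with 15 called higher and 4 lower. Of all tested probe sets, 56.7% were below 0 as deposited, 50.7% scaled to one median and 60.9% after quantile normalization. The share of all tested probe sets called under these alternatives was not counted. The direction of a small sex difference in a general subunit therefore depended on the scaling, and with the line as the replicate only 3 were called higher.

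A few general subunits had larger differences that kept their direction under each scaling. UQCR-Q, a small subunit of complex III, had Signals of 3747, 4549 and 4836 in males, against 1972, 2187 and 2809 in females, a difference of 0.94 ± 0.05 (adjusted p = 6.6e-11), and it was the only general subunit apart from the second COX7C probe set whose sexes did not overlap. ND-B8, an accessory subunit of complex I, had 838.7, 1178 and 1674 in males, against 303.7, 555.3 and 1365 in females, a difference of 0.91 ± 0.09 (adjusted p = 1.5e-07). Its sexes overlapped through the C2 females, which had 1365 and 1294 while the other 10 female arrays had at most 758.2. With the line as the replicate its adjusted p was 0.0011, which missed the threshold. ND-B12, another accessory subunit of complex I, was the only one lower in males, with 56.3, 82.0 and 158.0, against 83.3, 170.6 and 482.7 in females (difference -0.88 ± 0.15, adjusted p = 6.0e-05). These Signals are dim, and the highest female value again came from replicate 1 of L1 females.

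The other called general subunits differed less. ND-13A, a complex I subunit, differed by 0.34 ± 0.06 (adjusted p = 3.7e-05), SdhD, the second membrane anchor of complex II, by 0.27 ± 0.04 (adjusted p = 4.1e-05), and 4 further subunits of complex I by 0.21 to 0.24. ND-13A and SdhD fell short of the threshold under quantile normalization, with 0.17 and 0.12. By complex, medians of the general subunits were 0.10 for complex I (29 probe sets, 6 higher and 1 lower) and 0.14 for complex II (3, with 1 higher). For complex III the median was -0.0044 (4, with 1 higher), and for ATP synthase -0.0082 (12, none called). For complex IV it was 0.02 (9, with 1 higher, the second COX7C probe set described above). The assembly factor Sdhaf3 had 290.5, 353.6 and 492.0 in males, against 395.8, 449.5 and 511.6 in females, and its difference of -0.27 ± 0.09 (adjusted p = 0.0079) did not pass the threshold.

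No respiratory gene passed the test of line. At an adjusted p below 0.001, 0 of 80 probe sets were called by limma, against 6.56% of all tested probe sets, with 19 of 80 at an unadjusted p below 0.05 and a lowest adjusted p of 0.0014 for ND-B8. For line by sex the count was likewise 0, against 0.0252% of all tested probe sets, with 3 at an unadjusted p below 0.05. The model on the Signal itself, a pseudocount of 64 and the scaling to one median each called 1 by line. The spread among lines was small for the general subunits: in males the range of the 6 line means had a median of 0.24 on the log2 scale, against 0.48 over all tested probe sets, and in females 0.32 against 0.51. For the 20 male-biased L paralogs it was 0.52 in males. Replicate arrays of male-biased L paralogs had a median SD of 0.16 in males and 0.52 in females, where Signals are near the floor.

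In the fit of all 24 arrays, some members differed among the selection groups over both sexes. All that passed the test were lower in H than in L or C, or in L than in C. Between H and L lines, 8 of 80 probe sets were consistently different, called when the adjusted p was below 0.05 and each H line lay on the same side of each L line, which is 4 line comparisons, and likewise for the other contrasts. All 8 (10% of the 80) were lower in H, against 4.57% of all tested probe sets lower in H, and none was higher, against 3.03%. Between H and C lines, 5 probe sets (6.25%) were lower in H, against 5.48%, and none was higher, against 3.3%. Between L and C lines, 1 (1.25%) was lower in L, against 3.06%, and none was higher, against 2.51%. The H lines enter both of the first comparisons and the C lines both of the last, so these lists are not independent. With the line as the replicate, limma called 0 in each comparison. At an unadjusted p below 0.05 that test had 1, 5 and 2 of 80 for H against L, H against C and L against C. Of all tested probe sets, 5.32%, 5.17% and 4.59% reached that level. Line as a random block also gave 0 consistently different members in each comparison. Scaled to one median, H against L gave 1.

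These counts also moved with single arrays. Without replicate 1 of C1 females, the array with the raised testis and accessory gland Signals, H against C gave 17 probe sets instead of 5, and without replicate 1 of H2 females it gave 8. H against L gave 1 to 5 instead of 8 without any 1 of 14 of the 16 H and L arrays, the exceptions being replicate 1 of H1 females and replicate 1 of L1 females. L against C gave 0 without replicate 1 of C1 males, replicate 2 of C2 males, replicate 2 of L1 males, replicate 1 of L2 males or replicate 1 of L2 females, 5 without replicate 2 of L1 females and 2 without replicate 2 of L2 females. Among the genes named below, the H against C calls of SdhD, ATPsynCF6, ND-B16.6 and ND-B8 passed with each of the 24 arrays left out, while the call of ND-SGDH was lost with 11 of them. The H against L calls of ND-20L, ND-ACP and ATPsynCF6 were each lost with 12 of the 24 left out in turn, that of SdhD with 11 and that of ND-B16.6 with 3, and the L against C call of ND-B8 with 7, replicate 1 of C1 females among them (adjusted p = 0.051).

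Within a sex, the same fit called members only for H against C in females and for L against C in males. Within females 4 of 80 were lower in H than in C, ND-B8, SdhD, ATPsynCF6 and the L paralog COX6CL, against 3.42% of all tested probe sets called in either direction. In that comparison 41 of 80 members had an unadjusted limma p below 0.05. For the comparisons within a sex, the share of all tested probe sets at an unadjusted p below 0.05 was not counted. The percentages given here are for the stricter calls. SdhD (-0.40, adjusted p = 0.0091) and ATPsynCF6 (-0.42, adjusted p = 0.019) passed without replicate 1 of C1 females as well, although the call of ATPsynCF6 was lost with 6 of the 24 arrays left out in turn. ND-B8 (-0.90, adjusted p = 0.0055) was no longer called without that array, when the lines were no longer all on one side of each other. COX6CL had female Signals of 9.7, 17.7, 37.8 and 17.4 in H lines, against 78.6, 35.8, 27.0 and 28.5 in C lines, so that the arrays overlapped and the highest was replicate 1 of C1. Its difference of -0.65 (adjusted p = 0.047) was -0.43 without that array (adjusted p = 0.136), and the call was lost with 20 of the 24 arrays left out in turn. Within males UQCR-11, a small subunit of complex III, was lower in L than in C by -0.59 (adjusted p = 0.044), against 2.48% of all tested probe sets called in either direction, and this call was lost with 16 of the 24 arrays left out. Its male Signals were dim, at 74.7, 59.5, 44.6 and 33.0 in L lines, against 96.1, 79.8, 71.6 and 94.7 in C lines, and the arrays overlapped. In that comparison 4 members had an unadjusted limma p below 0.05. In the other comparisons within a sex limma called 0 of 80: H against L in males (3.62% of all tested probe sets, 9 members at an unadjusted p below 0.05), H against L in females (4.78%, 15 members), H against C in males (5.52%, 7 members) and L against C in females (3.02%, 8 members).

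**Figure D3:**
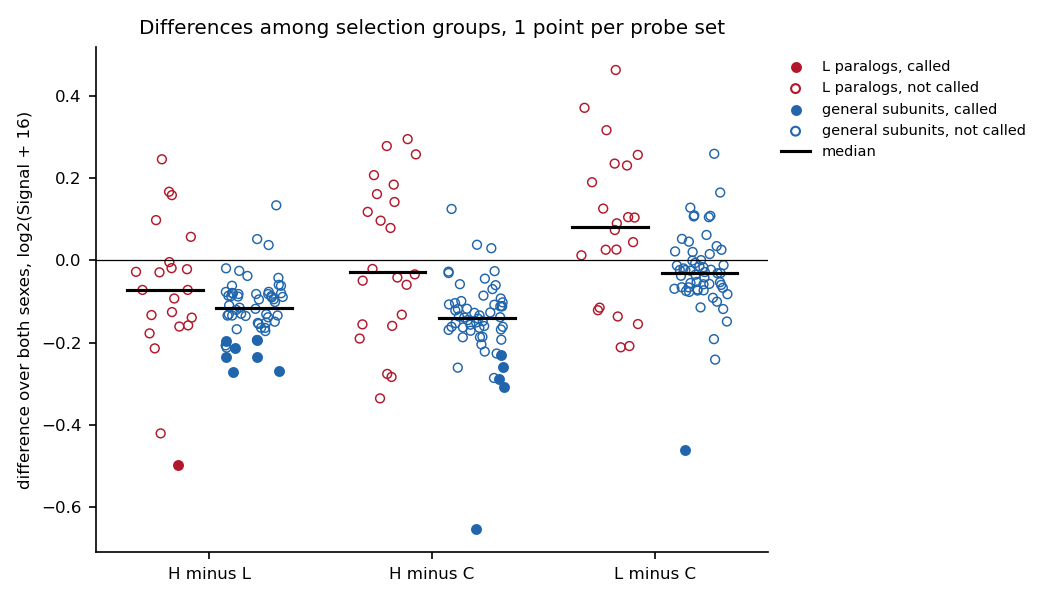
Differences in log2(Signal + 16) over both sexes for each tested probe set, H minus L, H minus C and L minus C, with L paralogs (red, left) and general subunits (blue, right). Filled points were consistently different and bars mark medians. All filled points lie below 0, and the medians of the general subunits are -0.115, -0.139 and -0.031.

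The H against L list held ND-20L, both ND-75 and ND-B16.6 of complex I, 2 of the 3 probe sets of ND-ACP, 1 of the 2 of ND-B17, SdhD and ATPsynCF6. ND-20L, the only L paralog among them, had male Signals of 489.3 and 470.5 in H1 and 621.8 and 606.4 in H2, against 719.1 and 679.5 in L1 and 702.2 and 698.9 in L2. The H and L males did not overlap, and the C males, at 479.2 to 621.6, lay with the H males. Within males the H minus L difference of -0.36 was not called (adjusted p = 0.416 in the fit of all arrays and 0.056 in a fit of the male arrays alone). Its difference over both sexes was -0.50 ± 0.14 (adjusted p = 0.034), of which the female part rests on Signals of 3.1 to 49.2. The highest of these came from replicate 1 of L1 females, without which the difference was -0.34 (adjusted p = 0.023). ND-ACP, the mitochondrial acyl carrier protein, was lower in H by its probe set with the highest mean, at -0.27 ± 0.08 (adjusted p = 0.038), and the remaining probe set of the gene was not called.

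SdhD, ATPsynCF6 and ND-B16.6 were lower in H than in both other groups. SdhD had male Signals of 7857, 7508, 6476 and 6427 in H lines, against 8176.5, 8348, 7410 and 8327 in L lines and 7412, 8935, 8339 and 8171 in C lines. Its female Signals were 5802, 5334.5, 5391 and 5924 in H, against 6592, 6949, 5818.5 and 6357 in L and 6927, 7773, 7302 and 7600 in C. The H and C females did not overlap, whereas the males did, and the difference over both sexes was -0.19 ± 0.05 against L (adjusted p = 0.036) and -0.31 ± 0.05 against C (adjusted p = 0.0021). ATPsynCF6, a peripheral stalk subunit of ATP synthase, differed by -0.23 ± 0.07 against L (adjusted p = 0.035) and by -0.29 ± 0.07 against C (adjusted p = 0.010). ND-B16.6, an accessory subunit of complex I, differed by -0.24 ± 0.06 against L (adjusted p = 0.020) and by -0.26 ± 0.06 against C (adjusted p = 0.011). With the line as the replicate, a test that called 0 of all tested probe sets, the adjusted p of these 3 genes against C was 0.931 or 0.932.

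ND-B8 was lower in both selected groups than in the controls, by -0.65 ± 0.11 in H (adjusted p = 0.0018) and by -0.46 ± 0.11 in L (adjusted p = 0.021). It was the largest difference among the general subunits. The female Signals were 471.0, 303.7, 466.0 and 576.2 in H lines and 499.7, 758.2, 534.4 and 749.8 in L lines, against 602.6 and 465.0 in C1 and 1365 and 1294 in C2. In females the control lines thus differed more from each other than the selected lines differed from C1. In males the H lines had 838.7 to 1352 and the L lines 894.9 to 1156, against 1255 to 1674 in the C lines, and H overlapped C while L did not. ND-SGDH, another complex I subunit, was lower in H than in C by -0.23 ± 0.07 (adjusted p = 0.035).

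**Figure D4:**
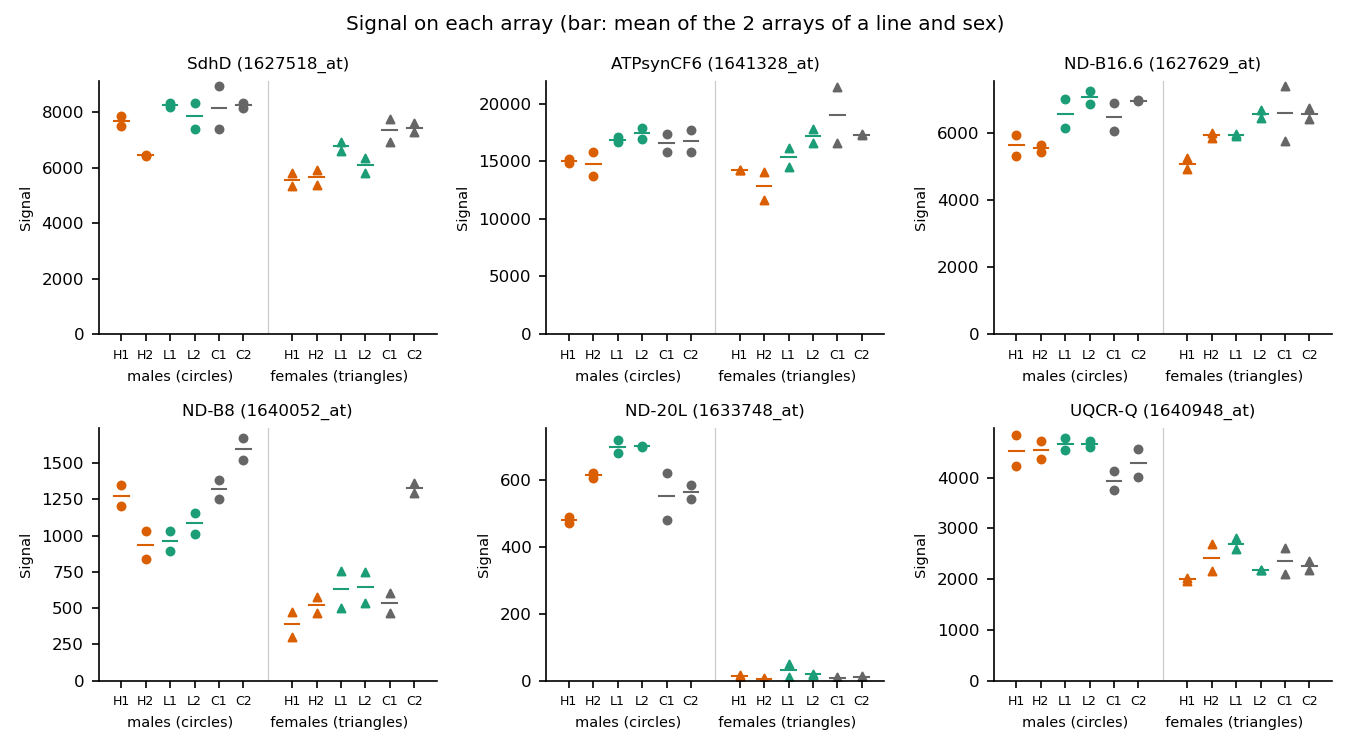
Signal on each array by line for SdhD, ATPsynCF6, ND-B16.6, ND-B8, ND-20L and UQCR-Q, males (circles, left) and females (triangles, right), with bars at the mean of the 2 arrays of a line and sex, orange for H, green for L and gray for C lines. Each axis starts at 0. The C2 females stand apart for ND-B8, and the sexes stand apart for ND-20L and UQCR-Q.

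Small shifts in one direction ran through the general subunits. Of the 57 tested probe sets, 54 had a difference below 0 for H minus L and 54 for H minus C, although 7 and 5 passed the test. Of all tested probe sets, 55.7% and 56.5% were below 0 in these comparisons. The median was -0.115 against L and -0.139 against C, while the medians of all tested probe sets were -0.0229 and -0.0292. By complex, the medians against C were -0.137 for complex I, -0.171 for complex II, -0.129 for complex III, -0.107 for complex IV and -0.167 for ATP synthase. Under quantile normalization the medians were -0.067 and -0.0686, with 47 and 46 of 57 below 0. The test of whether a selection difference depended on sex called 0 of 80 in any comparison by limma, with lowest adjusted p of 0.178, 0.126 and 0.271 and 2, 7 and 3 at an unadjusted p below 0.05. Of all tested probe sets it called 0.151% for H against L, 0.394% for H against C and 0.0755% for L against C. The share of them at an unadjusted p below 0.05 was not counted.

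Other quantities moved with these shifts. The 14 tested muscle genes included 8 lower in H than in C, against 5.48% of all tested probe sets, and 5 lower in H than in L, against 4.57%. Their summed Signals were 121700 to 153600 in H males, against 154200 to 163200 in L males and 153500 to 176300 in C males, and 97060 to 119200 in H females, against 125200 to 146600 in L females and 127600 to 154200 in C females. On female arrays the median deviation of the general subunits from their mean rose and fell with the 99th percentile Signal of the array (Pearson r = 0.955 over 12 arrays, given as a description, since general subunits are themselves among the brightest probe sets). On male arrays r was 0.485. That percentile was 11810 to 13330 in H females, against 11580 to 14330 in L females and 13310 to 15810 in C females. The part of muscle content and of array brightness in the H differences was not tested.

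The L paralogs had a median of -0.0277 for H minus C over both sexes, made of opposite parts. Within males 19 of 22 had a difference above 0 (median 0.31), and within females, where most Signals are near the floor, 19 of 22 had one below 0 (median -0.287). The female part rests in part on replicate 1 of C1 females. Its median deviation over the 20 male-biased L paralogs was 0.513, against -0.0959 to 0.0975 on the other C female arrays. The female count and median were not taken without that array. Whether the 2 sexes differed was tested gene by gene, as given above, and none was called. In males their summed Signal, over the 20 male-biased genes, was 24170 to 26400 on the 4 H male arrays and 22820 to 25380 on the 4 L male arrays, against 18420 to 22020 on the 4 C male arrays, with no overlap between C and the others. In the fit over all 24 arrays, 0 of 22 L paralogs were called higher in H than in C males or in L than in C males, against 5.52% and 2.48% of all tested probe sets called in either direction, with 4 and 1 at an unadjusted p below 0.05. That fit shares its estimate of spread with the female arrays. In a limma fit of the 12 male arrays alone, an alternative added after these Signals were seen, 8 of 22 were higher in H than in C males, against 4.64% of all tested probe sets, and none was lower, against 4.57%. In L males 1 of 22, ND-24L, was higher than in C males, against 1.61%, and none was lower, against 1.84%.

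The 8 genes came from all 5 complexes. ND-24L differed by 0.61 ± 0.09 (adjusted p = 0.0044) and UQCR-14L by 0.66 ± 0.12 (adjusted p = 0.012). For COX7AL the mean Signal was 2357 ± 219 for H males and 2329 ± 247 for L males, against 1729 ± 175 for C males (SD, n = 4 arrays), and H minus C was 0.45 ± 0.11 (limma, adjusted p = 0.035). COX4L, with 3766 to 4099 in H males and 2842 to 3493 in C males, differed by 0.37 ± 0.08 (adjusted p = 0.021), and ATPsynGL, SdhCL, ND-B14.5AL and COX6CL by 0.33 to 0.52. ATPsynbetaL and ATPsynepsilonL, the least male-biased of the 20, had 0.05 and -0.06. With the line as the replicate none of the 22 was called, with a lowest adjusted p of 0.547. Leaving out 1 male array at a time gave 2 to 8 genes for H against C, with 2 without replicate 1 of H1 males or of C2 males, and 3 without replicate 1 of C1 males.

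Of the 17 tested testis and sperm genes, 14 had a difference above 0 for H minus C in the same male fit, with a median of 0.21, against -0.0439 over all tested probe sets, and 3 were called higher, against 4.64%. Summed Signals of that list were 80460 to 90630 in H males and 82050 to 85080 in L males, against 64730 to 74820 in C males. Across the 12 male arrays the median deviation of the male-biased L paralogs followed that of the testis list (Pearson r = 0.952, a description over arrays that share lines), and their relation to the general subunits was weak (r = -0.0835). Whether C males carried less testis tissue or less of these transcripts per cell cannot be told apart.

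**Figure D5:**
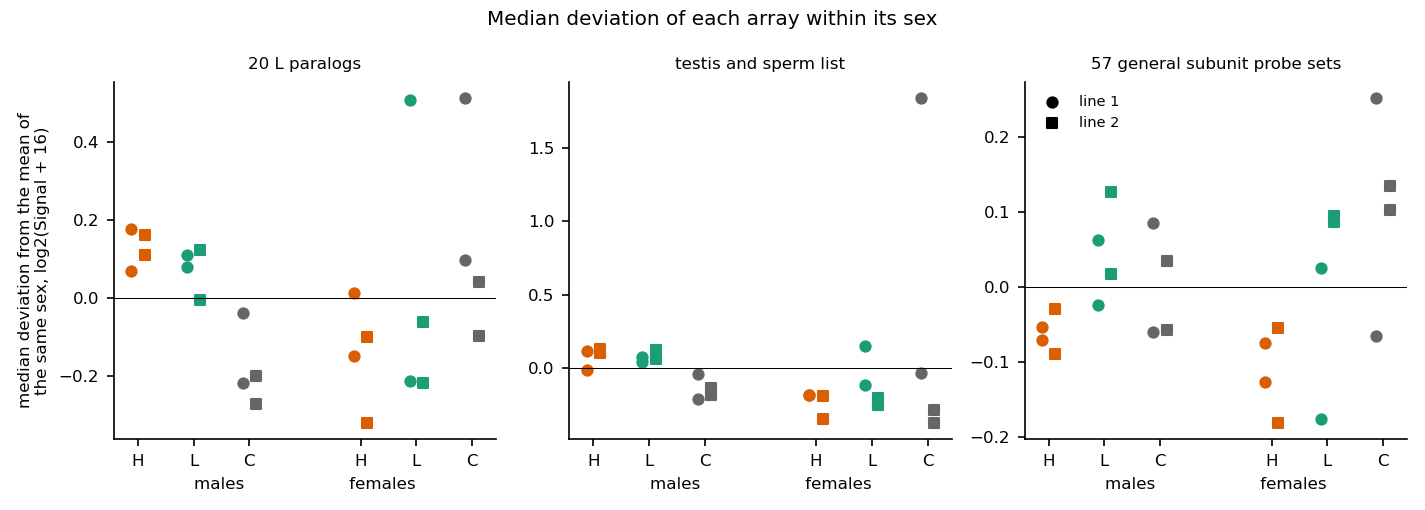
Median deviation of each array from the mean of the same sex, on the scale of log2(Signal + 16), for the 20 male-biased L paralogs, the testis and sperm list and the 57 general subunit probe sets, with males left and females right and groups H, L and C (circles line 1, squares line 2). C males lie lowest for the L paralogs and the testis list, H arrays lie below 0 for the general subunits, and replicate 1 of C1 females stands at 1.84 for the testis list.

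Duplicates in neighboring pathways, which were not set against their counterparts in a test, also had large sex differences. In the electron transport genes whose symbols fall outside the names used here, Cyt-c1L differed between the sexes by 3.56 (adjusted p = 4.4e-14) and its counterpart Cyt-c1, the cytochrome subunit of complex III, by 0.07 (adjusted p = 0.189). RFeSP, the Rieske iron-sulfur protein, and ox, a small subunit of complex III, had 0.11 and 0.10 and were not called. Of the 10 tested genes in that list 1 was higher in males and 2 were lower, against 30% and 44.5% of all tested probe sets.

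In the tricarboxylic acid cycle, 6 of 13 tested genes were higher in males, against 30% of all tested probe sets, and 1 was lower, against 44.5%. The aconitase mAcon1 differed by 0.08 (adjusted p = 0.214) and its duplicate mAcon2 by 4.37 (adjusted p = 3.0e-11), with Signals of 576.7, 759.7 and 936.0 in males, against 4.1, 16.15 and 77.3 in females. Of the isocitrate dehydrogenase subunits Idh3a had -0.05 and was not called, and Idh3b was higher in males by 0.37 (adjusted p = 1.1e-05). Among mitochondrial carriers 7 of 14 were higher in males, against the same 30%, and 2 were lower, against 44.5%. The adenine nucleotide translocase sesB, which exports ATP, had -0.04 (adjusted p = 0.475), while Ant2, a second translocase, was higher in males by 3.09 (adjusted p = 3.0e-15). The phosphate carriers Mpcp1 and Mpcp2 had 0.21 and -0.14 and were not called.

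Of 6 tested regulators of mitochondrial genes 5 were lower in males, against 44.5% of all tested probe sets, and 1 was not called. TFAM, which packs mitochondrial DNA and takes part in its transcription, had Signals of 454.1, 596.2 and 676.0 in males, against 1299, 1422 and 1766 in females, a difference of -1.32 (adjusted p = 1.4e-13). The transcription factor ewg, the fly homolog of NRF-1, differed by -1.66 (adjusted p = 1.3e-11), and mtTFB2, a mitochondrial transcription factor, by -0.62 (adjusted p = 2.6e-07). The factor crc, the fly ATF4, had 0.0077 (adjusted p = 0.861). By line, no gene of these 4 lists was called at an adjusted p below 0.001.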

How the data were processed

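RNA of 24 whole-body samples was hybridized to Affymetrix Drosophila arrays. The deposited Signal intensity of each probe set was computed by the authors with MAS5, the Affymetrix software, and arrays were scaled to a common level. Detection calls, on which the authors filtered, were not used here. Probe sets with a Signal of at least 50 on at least 12 arrays were tested instead. Values were analyzed as log2(Signal + 16) with limma 3.58.1 in R 4.3.3, with a mean fitted per line and sex (12 in all) and Benjamini-Hochberg adjustment over the 11928 tested probe sets, and the script was tested on simulated data. All adjusted p-values are from limma fits unless another test is named. Of 18769 probe sets, 13647 name 1 gene, 402 several and 4720 none in the platform annotation. Symbols and chromosome arms come from RefSeq (Release 6 plus ISO1 MT). A gene is represented by its probe set with the highest mean. Members, lists and tests were chosen with earlier results of these data known. Genes named are the L paralogs and counterparts, the most sex-biased called subunits of each complex, those with the smallest p in each selection contrast, and up to 4 genes of each list. Of the genes named, levy, cype, twe and the genes of the male-only fit and of the calls within a sex were picked with their values in view. The number of arrays limits the precision. The design called for promoter motifs, and these were not analyzed here. Alternatives covered filters, pseudocounts, scaling, the model, the replicate unit, the doubtful title, thresholds and arrays or lines left out. The male arrays alone, and arrays left out for calls within a sex, were added after seeing the data.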

Additional observations from a re-analysis of the deposited data

Results flagged for a closer look

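In 18 of 258 groups of 4 arrays, 1 array stood apart from the other 3, with a gap to its nearest neighbor that took most of the range of the group and exceeded the critical value of Dixon's test. The gap is given below as a share of that range. Chance alone does this in about 1 of 20 groups. Of these, 5 came from replicate 1 of C1 females. That array was high for ND-51L1 (26.5, against 2.5 to 3.4 on the other C female arrays, gap 0.943), COX4L (79.9, against 31.9 to 35.4, gap 0.898) and COX7AL (19.3, against 2.1 to 3.3, gap 0.904). It was low for the general subunits ND-20 (7403, against 9155 to 9466, gap 0.864) and ND-51 (8064, against 9205 to 9425, gap 0.848).

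Replicate 1 of L1 females was high for SdhCL (175.9, against 3.9 to 9.9 on the other L female arrays, gap 0.884) and COX6AL2 (37.4, against 4.1 to 6.4, gap 0.889). Among other female arrays, replicate 2 of H2 was low for UQCR-14 (16400, against 19510 to 20030, gap 0.868) and for ATPsynCF6 (11600, against 14100 to 14280, gap 0.941). Replicate 1 of H2 was low for COX6AL (6.4, against 42.9 to 53.8, gap 0.851), and replicate 2 of C2 for ATPsynbetaL (19.3, against 67.9 to 70.2, gap 0.97).

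Among male arrays, ND-B14.5AL was high in replicate 2 of H2 (855.7, against 777.8 to 787.1, gap 0.876) and in replicate 2 of C2 (683.3, against 580.0 to 594.8, gap 0.847). In replicate 1 of H2 males, ATPsynepsilonL was low (208.1, against 262.7 to 271.4, gap 0.876) and ND-B12 high (100.5, against 66.8 to 71, gap 0.855). In C1 males, replicate 2 was high for Sdhaf3 (492.0, against 311.1 to 330.7, gap 0.868) and ND-13A (11060, against 9262 to 9427, gap 0.9), and replicate 1 low for ND-B16.6 (6050, against 6894 to 6967, gap 0.926).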

How the results depend on the processing

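The count of 20 male-biased L paralogs stood under every filter, pseudocount, scaling and model tried and with each array left out (20 to 20), and the pair comparison gave 13 to 14 of 14. The other counts moved. General subunits higher in males numbered 5 with no filter, 20 scaled to one median, 15 after quantile normalization, 3 with the line as the replicate, 18 at an adjusted p under 0.05, 4 without line H1, 5 without H2, 5 without L1, 5 without L2 and 6 to 12 with 1 array left out. Those lower in males numbered 4 after quantile normalization, 0 in the model on the Signal itself, 3 at an adjusted p under 0.05 and 1 to 1 with 1 array left out. By line 1 was called with a pseudocount of 64, 1 scaled to one median, 1 in the model on the Signal itself and 9 at an adjusted p under 0.05. With 1 array left out, 0 to 2 were called by line (1 without replicate 1 of H1 females, 2 without replicate 2 of L1 females) and 0 to 0 by line and sex.

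H against L gave 2 probe sets with no filter, 1 scaled to one median, 0 with line as a random block, 0 with the line as the replicate, 0 at an adjusted p under 0.01, 5 with the doubtful H1 and H2 labels exchanged, 1 without line H1, 3 without H2, 4 without L1, 2 without L2, 2 without C2 and 1 to 9 with 1 array left out. H against C gave 8 with a Signal of at least 100, 10 with a pseudocount of 64, 21 in the model on the Signal itself, 8 with ordinary variances, 0 with line as a random block, 0 with the line as the replicate, 2 at an adjusted p under 0.01, 8 without C1, 2 without C2 and 4 to 17 with 1 array left out (17 without replicate 1 of C1 females). L against C gave 2 with a Signal of at least 100, 4 with a pseudocount of 64, 2 after quantile normalization, 8 in the model on the Signal itself, 2 with ordinary variances, 0 with line as a random block, 0 with the line as the replicate, 0 at an adjusted p under 0.01, 3 without L1, 3 without L2, 2 without C1, 0 without C2 and 0 to 5 with 1 array left out. With the replicate number as a block the counts were 11, 9 and 3 for these comparisons. The numbers do not pair the arrays, since deviations of arrays with the same number correlated at -0.246 to 0.211 over 66 pairs of groups. L paralogs higher in males than in C males numbered 8 for H and 1 for L with the male arrays alone, against 0 and 0 over all arrays, and 2 to 8 and 0 to 4 with 1 male array left out.

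Under quantile normalization the sex difference of UQCR-14 turned to 0.1933 (-0.02 as deposited) and that of crc to -0.167. The cause of these changes was not tested. The model on the Signal itself was not run for single genes, since its differences are on another scale, nor were pairs with a line left out. With 2 lines in each selection group, a selection difference rests on few independent units, and Signals near the floor in females limit what can be said of L paralogs there.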
